A study of Mus musculus with 6 samples.

Results

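Apolipoprotein E (Apoe), the cholesterol exporters Abca1 and Abcg1, the endocytic receptor Lrp1 and the fatty acid and scavenger receptor Cd36 were followed as RNA through mouse spleen cells. These 5 genes were taken by symbol, and each matched 1 of the 31053 gene rows of the count matrix. The set was chosen from these data, because Apoe had differed between libraries in B cells, so that difference is given as a description and supports nothing.

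The cells were splenocytes of C57BL/6 mice, measured by CITE-seq, in which DNA-tagged antibodies are counted beside the RNA of each cell. The labelled groups were aged mice of 20 months given recombinant mouse PF4 (platelet factor 4, a chemokine that platelets release; 5 µg/mL), aged mice of 20 months given saline and young mice of 3 months given saline. All received 8 tail vein injections of 100 µL over 24 days, the cells of 5 mice per group were pooled, and each group had 1 RNA and 1 antibody library, so there was no replicate. No label, file header or methods text ties the 3 barcode suffixes to these groups, and the libraries carry their suffix, 1, 2 or 3, as a name. Effects of age or PF4 were therefore not compared, and nothing was tested.

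Cells export cholesterol through the membrane transporters Abca1 and Abcg1. Abca1 loads it onto apolipoprotein acceptors, of which Apoe is one, and Abcg1 passes it to mature high-density lipoprotein (HDL) particles. Apoe-carrying particles are taken up by receptors of the lipoprotein receptor family, Lrp1 among them, while Cd36 takes up fatty acids and oxidized lipoproteins. Macrophages are the best-known source of Apoe among blood-derived cells, and the liver X receptors (LXR), which bind oxidized sterols, switch on Apoe, Abca1 and Abcg1 together.

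Of 29005 barcodes, 20161 (69.5%) held 300 to 5000 genes and at most 10% mitochondrial UMIs (unique molecular identifiers, each counting 1 captured RNA molecule) and were kept. The libraries held 4199, 7511 and 8451 kept cells, median depths of 3741, 3625 and 3765 UMIs, and 68 barcode sequences that occurred under more than 1 suffix. Levels are CPM, counts scaled to a total of 1e6 RNA UMIs, of cells summed within a class and library, with exact 95% Poisson intervals that cover counting error only. Classes were rebuilt from markers, with the 5 genes and the lipid gene lists kept out of the clustering. Libraries 1 and 3 differed from library 2 in red cell RNA: Hbb-bs, a haemoglobin gene, had 632, 62.4 and 262 CPM in the B-like cells of libraries 1, 2 and 3. Of the 483 erythroid-like cells 412 came from library 1.

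The level of Apoe, a secreted carrier of cholesterol and lipids, was high in macrophage-like cells (2224 CPM over all libraries, 361 cells) and in monocyte-like cells (1793 CPM, 532 cells). The order of this pair rested on library 1, since the macrophage-like level was 1790 CPM in library 2 and 726 CPM in library 3, under the monocyte-like levels of 2088 and 1656 CPM, and at a cluster resolution of 0.4 the macrophage-like level was 1508 CPM. B-like cells (310 CPM, 10786 cells) came next, followed by plasma-like cells (308 CPM, 115 cells), and the intervals of this pair, 305 to 316 and 283 to 335, overlapped. Plasmacytoid-like, dendritic-like, neutrophil-like and erythroid-like cells held 160, 114, 104 and 82.7 CPM, and basophil-like, NK-like and T-like cells 61.6, 28.0 and 18.5 CPM. The plasma-like level came from very few cells. In libraries 1, 2 and 3, a single cell held 342 of 369, 119 of 152 and 37 of 42 of the Apoe UMIs of plasma-like cells, and without it the levels were 42.4, 45.2 and 12.2 CPM. In macrophage-like, monocyte-like and B-like cells the highest cell held at most 9.36% of a library's Apoe UMIs.

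**Figure D1:**
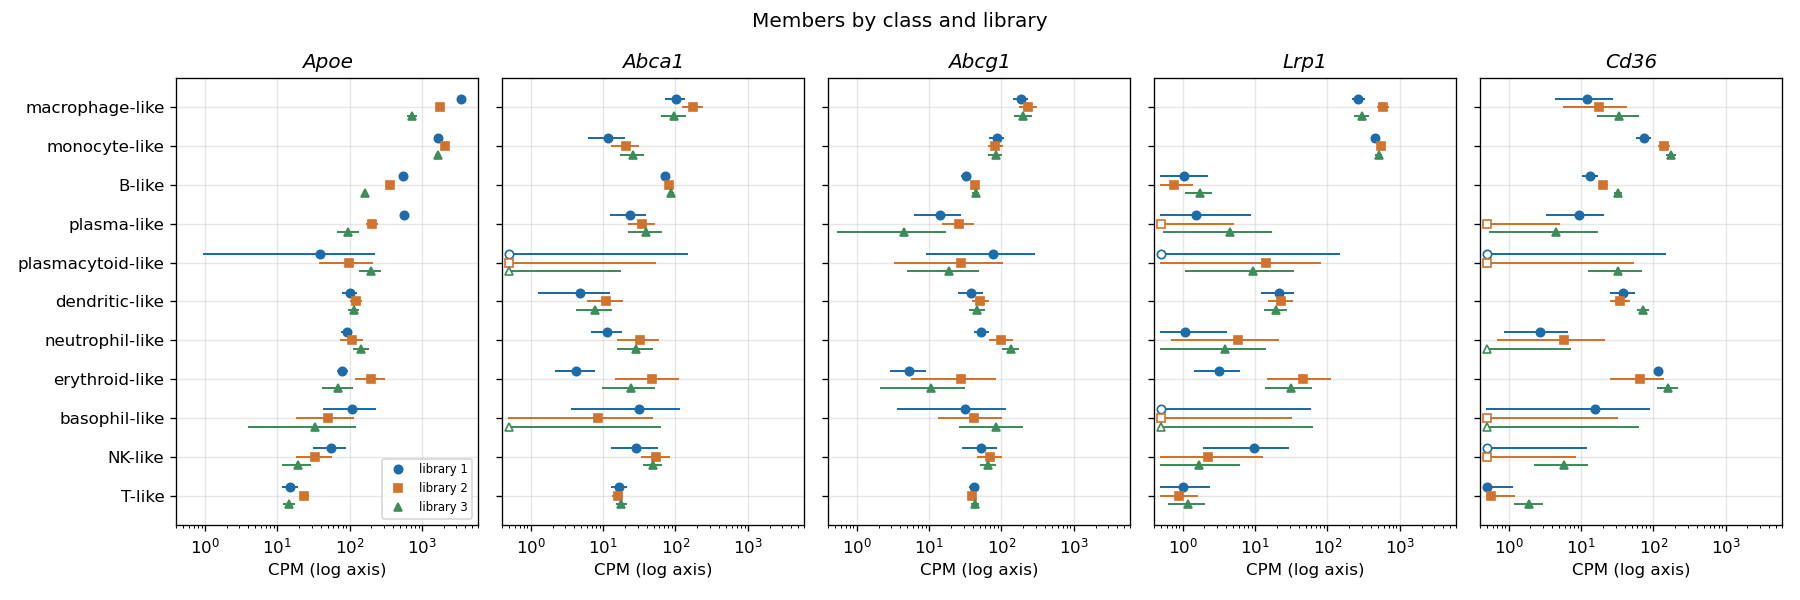
Levels of the 5 genes in CPM (log axis) for each class (rows, ordered by pooled Apoe) in libraries 1 (circles), 2 (squares) and 3 (triangles), with lines for 95% Poisson intervals, open symbols for counts of 0, and values under 0.5 CPM drawn at 0.5. Apoe and Lrp1 were high in macrophage-like and monocyte-like cells (Lrp1 356 and 507 CPM over all libraries), while Lrp1 was at 1.22 CPM in B-like cells.

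In B-like cells Apoe, the readout by which the set was chosen, had 552, 360 and 164 CPM in libraries 1, 2 and 3, and the intervals did not overlap. Apoe differed 3.37-fold between the highest and lowest library, a difference that its choice had fixed and that is not counted here. The other members with at least 10 CPM in some library were Abca1, Abcg1 and Cd36. Of these only Cd36 differed at least 2-fold (2.42-fold), beside 2.48% of the 8129 genes at that level. An antibody gate that uses no RNA (B220 and I-A/I-E, both on the surface of B cells) gave 549, 327 and 156 CPM. In library 1 the lowest count called B220-positive was 97, and the median count of cluster 8, described below, was 68.5. The gate and the B-like class therefore held partly different cells there, and their similar levels in library 1 are not a check of each other. B-like cells without any UMI of 8 macrophage genes had 561, 323 and 166 CPM.

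Most of this Apoe RNA lay in 1 group of cells. Cluster 8 was led by Ahnak2, Bhlhe41 (a transcription factor of B1 cells) and Zbtb32 (a transcription factor of atypical B cells), and held 799 cells. Its Apoe level was 1425 CPM in library 1, 1697 CPM in library 2 and 771 CPM in library 3, with intervals of 1374 to 1479, 1641 to 1756 and 677 to 875. Library 3, with 57 cells of the cluster, was the low one. Library 2 was above library 1 here, but with at most 5% mitochondrial UMIs allowed the order of these libraries turned round, with 1606 CPM in library 1 and 1394 CPM in library 2. In the rest of the B-like cells Apoe was at 172, 147 and 152 CPM, so that libraries 2 and 3 overlapped there.

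The other B-like clusters were lower. Cluster 4, led by the marginal zone genes S1pr3 and Cr2, had Apoe at 358, 214 and 214 CPM in libraries 1, 2 and 3, and 1 cell of library 3 held 170 of that library's 1087 UMIs. Cluster 1, led by the follicular genes Fcer2a and Ighd, held the most cells and had 117, 108 and 114 CPM, with overlapping intervals. Cluster 2 (2870 cells) was shallow, with a median of 1177 UMIs, and had 242, 255 and 159 CPM. Its leading genes began with Mpo, Elane, Prtn3 and Ctsg, genes of granulocyte precursors, ahead of the B cell genes Fcer2a and Ebf1. The UMIs of these 4 precursor genes lay in 15 of its cells, all from library 1, while Cd79a, a chain of the B cell receptor, was found in 92.3% of its cells. In alternatives added after seeing the data, its Apoe level in library 1 was 264 CPM without those 15 cells. Without the whole cluster, B-like Apoe was at 579, 370 and 165 CPM, in the same order as with it. Cluster 16, led by immediate early genes, was lowest with 81.4, 71.0 and 62.0 CPM, and cluster 20, with interferon-response genes and 73 cells, had 356, 120 and 160 CPM.

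Cluster 8 made up 17.8%, 9.56% and 1.24% of the B-like cells of libraries 1, 2 and 3, and 78.3%, 64.8% and 9.29% of their Apoe UMIs. In library 3 the largest part of B-like Apoe, 41.9%, was in cluster 4. When each library was given the pooled mix of clusters, an alternative added after seeing the data, Apoe was at 341, 333 and 218 CPM. Libraries 1 and 2 then lay closer together than at their own mixes, and library 3 stayed lowest. In the pooled mix cluster 8 had 11.7% of the UMIs, and for library 3 its level came from 57 cells with 241 Apoe UMIs. In the rest of the B-like cells libraries 2 and 3 overlapped, as given above. The makeup of cluster 8 also differed between libraries, as given below. Cluster sizes depend on the genes that define the clusters, which themselves differ between libraries. Whether cell numbers or RNA per cell set the B-like difference was not tested.

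**Figure D2:**
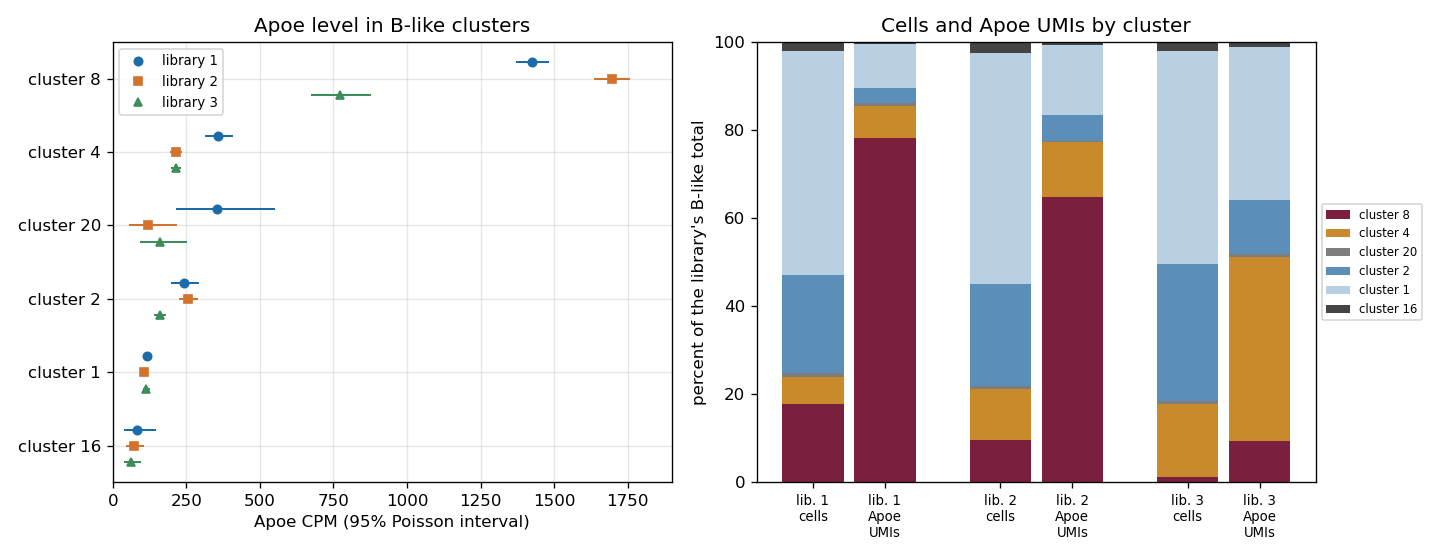
Left, Apoe CPM with 95% Poisson intervals in the 6 B-like clusters for each library; right, stacked bars with each cluster's percent of a library's B-like cells and of its B-like Apoe UMIs. Cluster 8 stood apart at 771 to 1697 CPM, and held 78.3% of B-like Apoe UMIs in library 1 and 9.29% in library 3.

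Per cell, 79.7% of cluster 8 cells had at least 1 Apoe UMI (exact binomial interval 76.8% to 82.5%, median depth 5007 UMIs), against 19.2% in cluster 1 (median 3321). T-like cells, which are not known for Apoe, had a UMI in 6.30% of cells at a median of 5300 UMIs, the level that free RNA or stray counts could give. Thinned to 1000 UMIs per cell, with shallower cells left out, the shares were 53.2% in cluster 8, 13.7% in cluster 4 and 8.12% in cluster 1. They were 4.82% in erythroid-like and 1.78% in T-like cells. The median cell of cluster 8 had 4.5, 4 and 2 Apoe UMIs in libraries 1, 2 and 3, and the highest 119, 254 and 24. Cells without Apoe were 57 of 326, 87 of 416 and 18 of 57, so that the gene was unevenly spread within the cluster.

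Split further, cluster 8 gave 4 groups of more than 100 cells. B8.4, led by the activation genes Egr3, Nfkbid and Cd83, had the highest Apoe with 3021, 3074 and 1098 CPM in libraries 1, 2 and 3 (41, 50 and 15 cells). B8.3, with Cr2 among its leading genes, had 1442, 1263 and 722 CPM (58, 77 and 24 cells). B8.1, led by Itgax, Tbx21 and Fcer1g, genes known from age-associated B cells, had 1574 CPM in library 2, which gave 284 of its 332 cells, and 1713 and 379 CPM in libraries 1 and 3 (36 and 12 cells). B8.2, led by S100a6 and Ahnak2, had 1012 CPM in library 1, which gave 189 of its 196 cells, and too few cells elsewhere to compare. In B8.4 and B8.3, which all libraries shared, library 3 was the lowest.

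Single genes in place of the cluster gave lower levels. B-like cells with a Bhlhe41 UMI had 1278, 1453 and 460 CPM of Apoe in libraries 1, 2 and 3, and those with a Zbtb32 or Tbx21 UMI 1085, 1121 and 376 CPM, where libraries 1 and 2 overlapped and library 3 was lowest. Outside cluster 8, Bhlhe41-positive B-like cells had 546, 340 and 368 CPM. B-like cells with Cd93, a receptor of immature B cells, had 25.3, 207 and 110 CPM, the first from 4 UMIs. B-like cells with none of Bhlhe41, Zbtb32 and Tbx21 had 252, 195 and 143 CPM.

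B-like cells with at least 3 Apoe UMIs were 15.8%, 10.2% and 5.75% of the B-like cells of libraries 1, 2 and 3. Of these, 69.8%, 57.4% and 10.6% lay in cluster 8. These cells were compared with B-like cells without Apoe, over the 3716 genes with at least 50 CPM in either group of some library. Of these genes 48 were at least 2-fold higher in every library. A gene low in cells without Apoe could pass this minimum only through the cells with Apoe, as did Gpr55, Lipc and Bhlhe41 below. How many of the 48 passed in this way was not counted, so the comparison is a description. Genes picked from these values after they were seen include Gpr55, a lysophospholipid receptor (56.1, 56.1 and 22.8 CPM in cells with at least 3 Apoe UMIs, against 5.86, 2.31 and 1.80 CPM in cells with none), and Lipc, hepatic lipase, which cleaves lipoprotein lipids (59.1, 40.8 and 12.8 CPM, against 3.06, 2.82 and 1.72 CPM). Bhlhe41 had 183, 128 and 43.5 CPM, against 25.7, 14.9 and 8.404 CPM. Fcer2a, the low-affinity IgE receptor of follicular B cells, was lower, with 86.3, 165 and 370 CPM, against 529, 612 and 721 CPM. The cells with Apoe were the deeper ones, with medians of 5571.5, 4532 and 4413 UMIs against 3206, 3159 and 3225 over all B-like cells.

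C1q RNA, but not all macrophage RNA, was scarce in cluster 8. Over C1qa, C1qb and C1qc, which encode the chains of complement C1q and mark spleen macrophages, cluster 8 held 22, 4 and 3 UMIs in libraries 1, 2 and 3, beside 2864, 3376 and 241 UMIs of Apoe. This is 130, 844 and 80.3 Apoe UMIs per C1q UMI, against 0.450, 0.447 and 0.272 in macrophage-like cells. In T-like cells the ratio was 0.731, 3.71 and 3.66. Cluster 4 had 66, 217 and 83.6, cluster 1 had 18.35, 55.3 and 21.0, and monocyte-like cells had 9.81, 33.2 and 44.3. A high ratio was therefore not particular to cluster 8. A UMI of any of 8 macrophage genes was found in 11.7%, 35.6% and 21.1% of cluster 8 cells (24.8% over all libraries), against 8.31% of B-like and 6.91% of T-like cells. Without such cells the Apoe level of cluster 8 was 1490, 1939 and 828 CPM. Of these genes 1 passed 10 CPM in cluster 8, Adgre1 (F4/80), with 9.95, 95.03 and 31.99 CPM in libraries 1, 2 and 3, and it was among the leading genes of B8.1. Of 9 genes of other cell types, 7 passed 10 CPM in cluster 8, led by Hbb-bs (414, 51.3 and 35.2 CPM) and the neutrophil genes S100a9 (154, 15.1 and 25.6 CPM) and S100a8 (132, 16.1 and 19.2 CPM), which were highest in library 1, while Lyz2 had 25.4, 16.1 and 41.6 CPM. Their part in the Apoe level was not tested. On the surface, cells of cluster 8 with at least 3 Apoe UMIs had median B220 counts of 74, 250.5 and 187.5 in libraries 1, 2 and 3, and cells of the cluster without Apoe 67, 252 and 194. Macrophage-like cells had 50, 71 and 85. In library 1 the median of both parts of cluster 8 was under 97, the lowest count called B220-positive in that library. For CD11b, the cells with at least 3 Apoe UMIs had medians of 4, 10 and 4, cells of the cluster without Apoe 4, 12 and 4, and macrophage-like cells 9, 7 and 7.

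**Figure D3:**
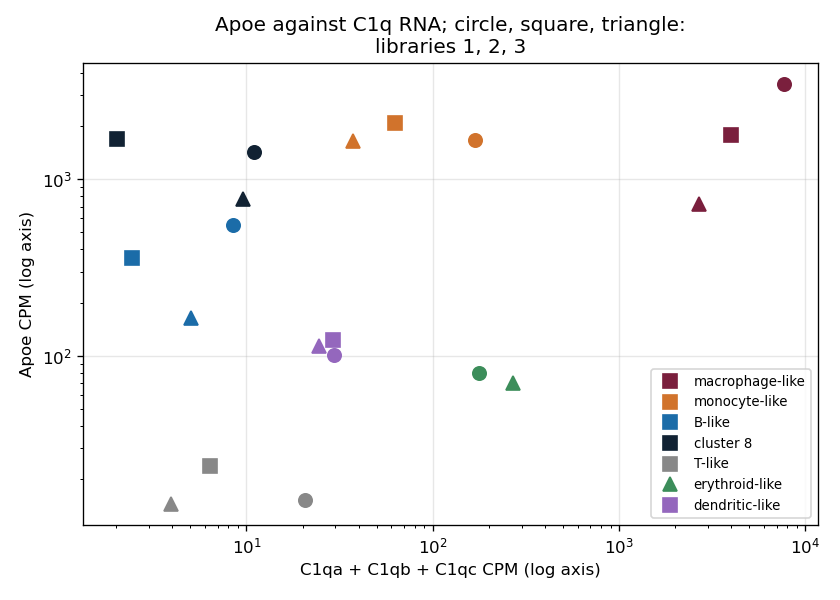
Apoe CPM against the summed CPM of C1qa, C1qb and C1qc (both log axes) for 6 classes and for cluster 8, with circles, squares and triangles for libraries 1, 2 and 3; erythroid-like cells of library 2 (19 cells) are left out. Cluster 8 had 80.3 to 844 Apoe UMIs per C1q UMI, all B-like cells 32.4 to 149, monocyte-like cells 9.81 to 44.3 and macrophage-like cells 0.272 to 0.450.

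In macrophage-like cells, which carried the red pulp genes Vcam1, Hmox1 and Slc40a1, Apoe was at 3463, 1790 and 726 CPM in libraries 1, 2 and 3, and the intervals did not overlap. Without library 1 the pooled level was 1218 CPM, against 2224 CPM with it. The class was shallow, with a median of 1708 UMIs per cell, and the share of cells with Apoe was 85.2%, 74.7% and 57.5%. Of the 5 members 3 differed at least 2-fold between libraries, Apoe (4.77-fold), Cd36 (2.77-fold, from 22 UMIs in all) and Lrp1 (2.17-fold), against 32.5% of 9565 genes. Of 8 macrophage genes 3 differed at least 2-fold, near the 32.5% of all genes. In libraries 1, 2 and 3, 3, 4 and 1 of these 8 genes were highest, so they had no common order. Among them C1qb, a complement gene, had 2649, 1082 and 568 CPM, in the order of Apoe. Hmox1, which breaks down haem, ran the other way with 1355, 2060 and 2235 CPM. Of 9 genes of other cell types 5 differed at least 2-fold in the class, beside 32.5% of all genes, among them S100a8 (249, 21.6 and 46.3 CPM), and their part in the Apoe level was not tested. Apoc1, whose gene lies beside Apoe, had 746, 191 and 30.9 CPM.

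Macrophage sub-clusters differed in what else they held. Ma.4 (38 cells, median 4028 UMIs) was led by the scavenger receptor genes Marco and Cd163, which were left out of the clustering, and had Apoe at 4425, 2726 and 604 CPM in libraries 1, 2 and 3. Ma.1 (173 cells, median 1128 UMIs), led by immunoglobulin and T cell RNA, had 3040, 1620 and 951 CPM. In both, the libraries followed the order of the whole class and no intervals overlapped, but these intervals cover counting error only. Ma.4 had 10, 19 and 9 cells in libraries 1, 2 and 3, and in library 3 a single cell held 6 of its 16 Apoe UMIs. Ma.2, led by haemoglobin genes, gave 4646 CPM in library 1, which held 77 of its 89 cells, and 808 and 1458 CPM in libraries 2 and 3. Ma.3, led by B cell genes, had 919, 999 and 302 CPM.

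Monocyte-like cells had Apoe at 1662, 2088 and 1656 CPM in libraries 1, 2 and 3, with libraries 1 and 3 overlapping. Their 2 main sub-clusters ran opposite ways. Mo.1, with the non-classical (patrolling) monocyte genes Ear2 and Fcgr4, had 3624, 2787 and 2176 CPM (47, 57 and 80 cells). Mo.2, with the classical (inflammatory) monocyte genes Ly6c2, F13a1 and Vcan, had 724, 1409 and 1761 CPM (61, 47 and 69 cells). The leading genes of Mo.2 also included the granulocyte precursor gene Prtn3, Cd177, S100a8, S100a9, Fn1, and the cell cycle genes Stmn1 and Mki67. It may thus be mixed, and whether its makeup differed between libraries was not tested. In Mo.1 library 1 was highest and library 3 lowest, in Mo.2 the reverse, and no intervals overlapped within either. Whether the sub-clusters differ in this was not tested, and in monocyte-like cells S100a8 (664, 39.6 and 208 CPM) and Hbb-bs (1212, 34.4 and 60.1 CPM) also differed between libraries. The surface marker Ly-6C had a median count of 185 in Mo.1 and 689 in Mo.2. Mo.3, with MHC class II genes and Cxcl9, had 2076, 2880 and 1173 CPM (31, 27 and 24 cells).

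**Figure D4:**
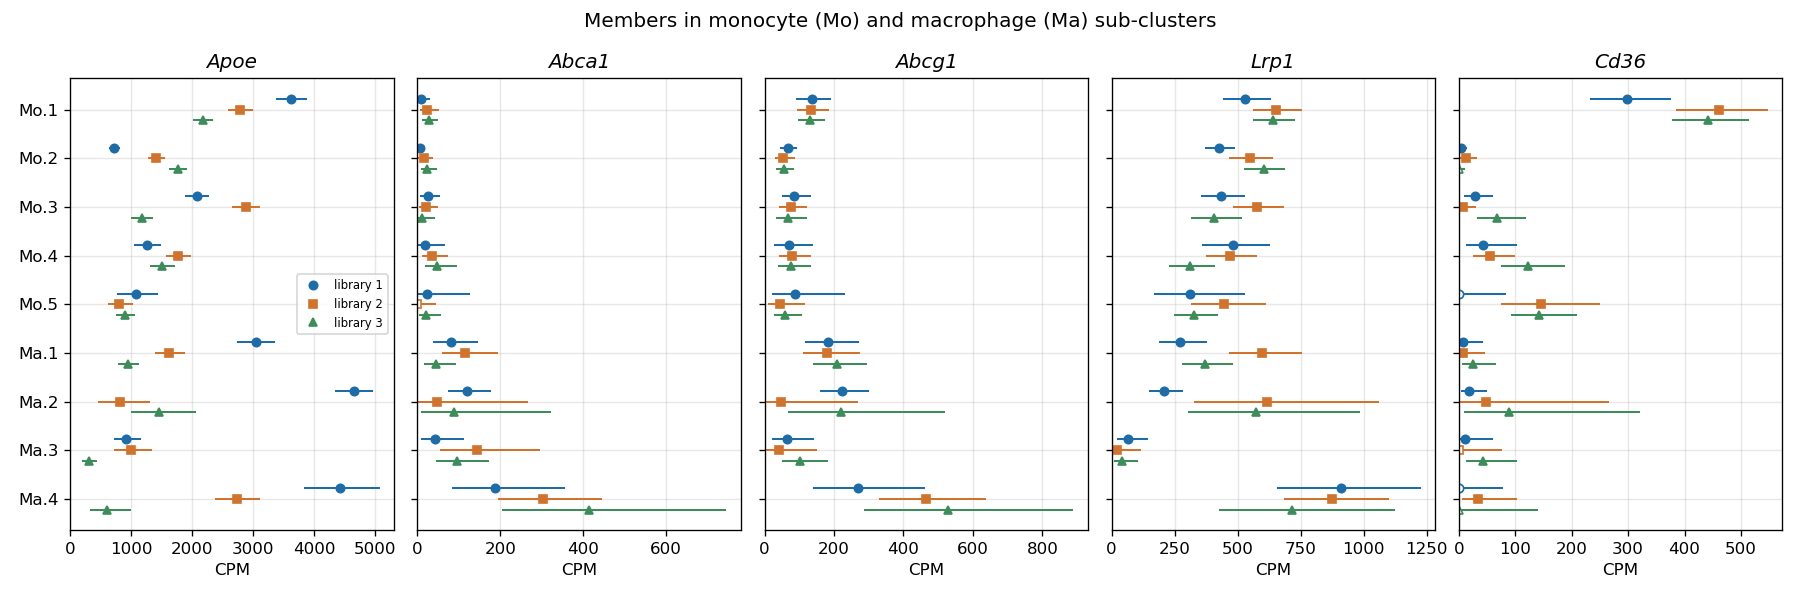
CPM of the 5 genes with 95% Poisson intervals in 5 monocyte and 4 macrophage sub-clusters for libraries 1 (circles), 2 (squares) and 3 (triangles). Mo.4, Mo.5, Ma.1, Ma.2 and Ma.3 were led by genes of B, T, plasma or red cells, and open symbols are counts of 0. Cd36 was at 299 to 461 CPM in Mo.1 and at 0 to 12.1 CPM in Mo.2, and Apoe ran in opposite orders over the libraries in Mo.1 and Mo.2.

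Lrp1, a large endocytic receptor for Apoe and many other ligands, was high in monocyte-like and macrophage-like cells and near 0 in lymphocytes. It had 451, 559 and 514 CPM in monocyte-like cells of libraries 1, 2 and 3, and 268, 582 and 296 CPM in macrophage-like cells. Dendritic-like cells were next with 20.9 CPM over all libraries, and every other named class was under 10 CPM. Within monocytes Mo.1 and Mo.2 had 615 and 514 CPM over all libraries, with intervals of 566 to 667 and 476 to 554. Ma.4 was the highest sub-cluster with 859 CPM (721 to 1014). In B-like cells 45 UMIs were counted in 10786 cells (1.22 CPM), and cluster 8 had 6 UMIs beside 6481 of Apoe. Lrp1 was found in 89.8% of monocyte-like cells, against 0.417% of B-like and 0.552% of T-like cells, so the B-like share was not above that of T-like cells. Lrpap1, the chaperone of the receptor family, had 75.7 CPM in monocyte-like and 25.7 CPM in B-like cells.

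Cd36, which binds oxidized lipoproteins and long-chain fatty acids, divided the monocytes. Mo.1 had 299, 461 and 443 CPM in libraries 1, 2 and 3, and Mo.2 had 3.61, 12.1 and 0 CPM, from 2, 4 and 0 UMIs. Cd36 was among the 10 leading genes of Mo.1 although it had no part in the clustering. Thinned to 1000 UMIs per cell, 32.02% of Mo.1 cells had a Cd36 UMI and none of the 173 Mo.2 cells deep enough, where the exact binomial interval reaches 2.11%. Of the 5 members 2 differed at least 2-fold between libraries in monocyte-like cells, Cd36 (73.6, 141 and 177 CPM) and Abca1 (11.6, 20.7 and 25.6 CPM, from 14, 24 and 35 UMIs), against 13.4% of 8358 genes. Mo.1 made up a different share of the class in each library, 47 of 155, 57 of 160 and 80 of 217 cells.

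Outside monocytes Cd36 was highest in erythroid-like cells (119 CPM, 412 of 483 cells from library 1) and dendritic-like cells (38.0, 35.1 and 72.6 CPM in libraries 1, 2 and 3). In macrophage-like cells 22 UMIs were counted in all (20.2 CPM, 12.6 to 30.5), a level that was 46.2 CPM at a cluster resolution of 0.4 and 11.3 CPM as a mean over cells. Among B-like cells cluster 4, with the marginal zone genes, was highest with 39.3, 44.8 and 63.4 CPM, and cluster 1 had 11.5, 12.5 and 15.8 CPM. Over all B-like cells Cd36 had 13.4, 20.3 and 32.5 CPM, the opposite order to Apoe, and 18.0, 21.6 and 30.0 CPM at the pooled mix of clusters. T-like cells held 1.06 CPM.

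In cluster 8, 3 of the 4 members that passed 10 CPM differed at least 2-fold between libraries, against 24.1% of 8580 genes. These were Apoe (2.20-fold), Abcg1 (30.9, 70.9 and 38.4 CPM in libraries 1, 2 and 3) and Cd36 (6.97, 10.1 and 31.99 CPM, from 14, 20 and 10 UMIs). Apoe was chosen for its difference in B-like cells, which include cluster 8, so its place in this count was not independent. Abca1 had 51.3, 44.2 and 54.4 CPM there, with overlapping intervals. In B8.1, 12.9% of cells with Apoe and 11.7% of cells without it had an Abca1 UMI, and 29.8% and 22.1% an Abcg1 UMI.

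Abca1, which moves cholesterol and phospholipid to lipid-poor apolipoproteins, had 100, 173 and 95.7 CPM in macrophage-like cells of libraries 1, 2 and 3 (117 CPM pooled), and 70.6, 81.5 and 87.4 CPM in B-like cells (82.1 CPM pooled). The pooled intervals of these neighbours, 97.9 to 139 and 79.2 to 85.04, did not overlap, but within libraries 1 and 3 they did. Without library 2 macrophage-like Abca1 was at 98.4 CPM, and at a cluster resolution of 0.4 it was 86.4 CPM. B-like cells without cluster 2 had 62.7, 72.2 and 75.3 CPM. Within B-like cells the order was unlike that of Apoe, with 173 CPM in the shallow cluster 2, 83.4 CPM in cluster 1, 60.4 CPM in cluster 4 and 48.3 CPM in cluster 8. Monocyte-like cells were low with 19.5 CPM, T-like cells had 16.9 CPM and dendritic-like cells 8.16 CPM. No UMI was found in 40 plasmacytoid-like cells, which allows up to 11.8 CPM by the Poisson interval.

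Abcg1, which passes cholesterol to mature HDL particles, was found in every named class. Macrophage-like cells had 186, 234 and 198 CPM and monocyte-like cells 86.0, 82.6 and 82.8 CPM in libraries 1, 2 and 3, with overlapping intervals in both. Neutrophil-like cells had 52.8, 98.9 and 134 CPM. Cluster 18, a neutrophil cluster with 133 of its 135 cells from library 1, had 19.8 CPM in that library, and cluster 9, which all libraries shared, 125, 103 and 134 CPM. NK-like, dendritic-like, B-like and T-like cells had 64.2, 46.1, 41.8 and 41.5 CPM, and the last pair overlapped. Ma.4 was highest with 417 CPM for Abcg1 and 286 CPM for Abca1, and Mo.1 had more Abcg1 than Mo.2, 134 against 59.9 CPM.

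Apoe, Abca1 and Abcg1 are known LXR target genes, and LXR with its partner RXR binds a direct repeat of 6 bases with 4 bases between, called DR4. The upstream bases of Abca1 and Apoe are shown because both genes are known targets of LXR but differ in which cells carried their RNA here. Both genes lie on the minus strand of GRCm38 (mm10), Abca1 at chr4:53030787-53159895 and Apoe at chr7:19696109-19699188, where Apoc1 lies downstream at chr7:19689481-19692660. The 250 bases before the RefSeq start of each are given, chr4:53159896-53160145 and chr7:19699189-19699438, with any DR4 match in capitals.
Abca1: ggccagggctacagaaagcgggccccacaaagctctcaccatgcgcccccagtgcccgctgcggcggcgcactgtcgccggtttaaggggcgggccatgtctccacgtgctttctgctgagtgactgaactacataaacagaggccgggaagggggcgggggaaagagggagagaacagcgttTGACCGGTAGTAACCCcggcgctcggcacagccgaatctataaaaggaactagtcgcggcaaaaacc
Apoe: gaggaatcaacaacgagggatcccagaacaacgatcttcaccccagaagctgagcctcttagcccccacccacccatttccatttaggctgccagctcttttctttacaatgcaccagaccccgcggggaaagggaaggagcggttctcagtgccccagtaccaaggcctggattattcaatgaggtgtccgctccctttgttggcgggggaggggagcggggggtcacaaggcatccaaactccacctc

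The pattern searched was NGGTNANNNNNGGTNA on both strands, over windows that run from 250 bases before to 50 bases after a start. It matched 236 of 32851 promoters (0.718%). The Abca1 window held 1 match, at 67 bases before the start, reading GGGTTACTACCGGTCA on the other strand. None of the 3 Apoe windows and neither that of Lrp1 nor that of Cd36 matched, and Abcg1 had no entry. The DR1 form, NGGTNANNGGTNA, with 1 base between the repeats, to which PPAR binds, matched 1.10% of promoters and none of these windows. A match of letters is a description only, and no match says nothing about binding.

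Among the LXR genes themselves, Nr1h2 (LXR beta) was spread evenly, with 51.3, 52.5 and 52.3 CPM in B-like cells of libraries 1, 2 and 3 and 53.7, 52.5 and 49.8 CPM in monocyte-like cells. Nr1h3 (LXR alpha) passed 10 CPM in macrophage-like cells (155, 262 and 198 CPM) and in monocyte-like cells (32.2, 12.05 and 8.06 CPM) but not in B-like cells. Of the 10 other LXR target genes 7 passed 10 CPM in B-like cells, and 0 of them differed 2-fold between libraries, beside the 2.48% of all 8129 genes that did. Scd1, a fatty acid desaturase, had 319, 416 and 426 CPM there, and Mylip, a ubiquitin ligase, 129, 160 and 148 CPM. Their median log2 ratio of highest to lowest library was 0.49, beside 0.25 over all 8129 genes. In cluster 8, 4 of 7 passed 2-fold, beside 24.1% of all 8580 genes, among them Mylip (106, 208 and 63.98 CPM) but not Scd1 (179, 344 and 256 CPM), with a median log2 ratio of 1.10 beside 0.61 over all genes. In macrophage-like cells 4 of 10 passed 2-fold, near the 32.5% of all 9565 genes. There Cd5l, a macrophage survival factor, and Mertk, an engulfment receptor, were the most abundant with 435, 618 and 262 CPM and 288, 428 and 272 CPM.

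Of 9 other apolipoprotein genes none passed 10 CPM in B-like cells or in cluster 8, 2 did in macrophage-like cells and 1, Apoc1, did in monocyte-like cells (31.4, 22.4 and 28.6 CPM). Of the lipoprotein receptor family and its helpers other than Lrp1, 5 of 12 passed in B-like cells and 0 of these differed 2-fold, beside 2.48% of all genes. Sorl1, a sorting receptor, had 191, 256 and 292 CPM and Lrp10 87.2, 99.4 and 112 CPM. In monocyte-like cells 7 passed and 0 differed 2-fold, beside 13.4% of all genes, with Sorl1 at 251, 268 and 275 CPM. Scavenger receptors other than Cd36 were found at 10 CPM in B-like cells for 1 of 10 genes, in monocyte-like cells for 6 and in macrophage-like cells for 8. In the last class 2 of the 8 differed at least 2-fold, beside 32.5% of all 9565 genes. Marco had 266, 79.1 and 52.5 CPM there in libraries 1, 2 and 3.

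For the handling of cholesterol inside the cell, Npc2, which carries it out of lysosomes, had 988, 797 and 931 CPM in monocyte-like and 111, 119 and 113 CPM in B-like cells of libraries 1, 2 and 3. Soat1, which esterifies it for storage, had 329, 296 and 284 CPM and 80.3, 90.4 and 82.7 CPM. Of 15 genes of cholesterol synthesis 12 passed 10 CPM in B-like cells and 0 differed 2-fold, near the 2.48% of all genes. Their regulator Srebf2 had 127, 133 and 143 CPM there. In cluster 8, 4 of the 11 that passed differed at least 2-fold, beside 24.1% of all genes.

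Of 11 genes of fatty acid uptake and storage, 9 passed 10 CPM in macrophage-like cells. Of these 2 differed at least 2-fold, beside 32.5% of all 9565 genes. Fabp4 and Fabp5, intracellular fatty acid carriers, were highest in library 1 there (Fabp4 202, 21.6 and 9.26 CPM, Fabp5 182, 50.3 and 58.7 CPM). In monocyte-like cells Fabp4 had 44.6, 110 and 119 CPM, the order of Cd36, and it was another of the 10 leading genes of Mo.1. Of 8 other ligands of Lrp1, 4 passed 10 CPM in monocyte-like cells, Tgfb1 (373, 433 and 438 CPM), the chaperone Calr (360, 263 and 284 CPM), complement C3 (332, 231 and 267 CPM) and Pf4 itself (1.65, 10.3 and 1.47 CPM, from 2, 12 and 2 UMIs), named after its values were seen.

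Patterns over cells were compared as log2(CPM + 1) across 28 units, each 1 class in 1 library with at least 20 cells, for 10218 genes. The units share libraries, so the correlations are descriptions. Most like Apoe were Lgmn, a lysosomal protease (Pearson r = 0.84), Ctss, a cathepsin (0.84), Tlr7 (0.83), Myof (0.81) and Rassf4 (0.81). Most like Lrp1 were Adgre4 (0.95), Hpgd (0.94), Cd302 (0.93), Cd300e (0.93) and Clec4a1 (0.93). Those most like Abcg1 were AB124611, Rela, Tbc1d13, Ugp2 and Rab7 (0.86 to 0.87), for Abca1 they were Pick1, Prkce, Ikzf3, Akr1b10 and Plpp3 (0.73 to 0.81), and for Cd36 Tifa, Arhgap11a, E2f1, Cyp27a1 and Stom (0.73 to 0.79). Between members r was 0.73 for Apoe and Lrp1, 0.63 for Lrp1 and Cd36 and 0.54 for Apoe and Cd36. It was 0.45 for Abca1 and Abcg1, 0.39 for Apoe and Abcg1, 0.30 for Apoe and Abca1, and -0.14 for Abca1 and Cd36.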

How the data were processed

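Splenocytes were profiled by 10x 3' v3.1 CITE-seq. The deposited matrix holds counts of UMIs per gene (31053) and antibody (34) and barcode, which the authors made with Cell Ranger 5.0.1 (file header) against mm10; Seurat is named in the submitters' processing notes. No source used here states whether depth was equalised when the libraries were joined. Barcodes with 300 to 5000 genes and at most 10% mitochondrial UMIs were kept. Cells were clustered with scanpy 1.11.5 and igraph 0.11.9 (2000 variable genes without the members and lipid lists, 20 components, 20 neighbours, resolution 0.8) and named from marker lists, so names may differ from the study's. Scrublet marked 504 cells (2.50%), which were kept.

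UMIs of a gene were added up over the cells of a class in each library and divided by all RNA UMIs of those cells, with exact 95% Poisson intervals; shares have exact binomial (Clopper-Pearson) intervals. PCR and pooling errors are not covered. With 1 library per group and no map from suffix to group, no test was run. Genes with at least 10 CPM in a library were called past 2-fold from highest over lowest library, with fewer than 3 counts set to 3. The members and lists were chosen with earlier results of these data known. Named were the 5 members, the 2 to 4 most abundant genes of each list, check genes and the 5 genes most like each member. Gene positions came from GENCODE (GRCm38) and upstream sequences from RefSeq (GRCm38.p6), which matched 4 of 5 members. Lrp1 and Abcg1 each overlap another annotated gene. Alternatives were a 5% mitochondrial limit, removal of Scrublet cells, resolution 0.4, means over cells, another denominator, removal of cells with macrophage UMIs, antibody gates, other CPM minimums, TMM factors (edgeR 4.0.16) and each library left out. The fold calculation was tested on simulated data.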

Additional observations from a re-analysis of the deposited data

Results flagged for a closer look

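Barcodes that the report leaves out carried signal of all 5 genes. The 7731 barcodes with at least 300 genes and over 10% mitochondrial UMIs had a median of 1049 UMIs and held Apoe at 297 CPM, Abca1 at 103 CPM, Abcg1 at 76.2 CPM, Lrp1 at 20.8 CPM and Cd36 at 39.8 CPM. By library their Apoe level was 442, 339 and 195 CPM in libraries 1, 2 and 3. There is no control sample for these barcodes, and whether this RNA came from their cells or was free RNA was not tested.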

How the results depend on the processing

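The order of libraries 1 and 2 in cluster 8 turned round with at most 5% mitochondrial UMIs. Removing Scrublet cells left all 11 levels within their intervals, and TMM factors, run for the 4 shares of genes past 2-fold only, kept these within 1.5 times. The share of genes past 2-fold, 2.48% in B-like cells, was 34.2% with no CPM minimum and 1.54% at 25 CPM; in cluster 8 it was 49.6% with no minimum, and in monocyte-like cells 7.38% at 25 CPM. Apoe in B-like cells of libraries 1 and 2 was 464 and 263 CPM with at most 5% mitochondrial UMIs. Means over cells gave 407, 292 and 149 CPM in libraries 1, 2 and 3, a total without immunoglobulin, haemoglobin and mitochondrial genes 590, 384 and 175 CPM, and the pooled mix of clusters 341, 333 and 218 CPM. Library 1 had 579 CPM without cluster 2, library 2 had 323 CPM without macrophage UMIs, and the antibody gate gave 327 and 156 CPM in libraries 2 and 3. In cluster 8, libraries 1 and 2 had 1606 and 1394 CPM at 5% mitochondrial UMIs, 1533 and 1821 CPM with the other total, and 1490 and 1939 CPM without macrophage UMIs. At resolution 0.4 libraries 2 and 3 had 1524 and 435 CPM, and the mean over cells of library 2 was 1589 CPM. In macrophage-like cells, resolution 0.4 gave 1508 CPM for Apoe, 46.2 for Cd36, 86.4 for Abca1 and 140 for Abcg1. Means over cells gave 2542 CPM for Apoe, 11.3 for Cd36 and 248 for Abcg1, the other total 2462 CPM for Apoe, and leaving out Ma.3 2711 CPM for Apoe and 240 for Abcg1. Leaving out each library gave 1218 (without library 1) to 2857 CPM for macrophage Apoe and 484 to 535 CPM for monocyte Lrp1, for which averaging over cells gave 598 CPM and leaving out Mo.4 and Mo.5 gave 539 CPM. The cause was not tested. The antibody gate for macrophages was not run, as F4/80 counts did not split into separate low and high components. No paired analysis was possible because each group has 1 library and no result comes from a test.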

Other observations

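Clusters 10 and 17 were left unnamed. Cluster 10, led by immunoglobulin light chain genes and Cd4, had Apoe at 13.5, 150 and 56.1 CPM in libraries 1, 2 and 3, the first from 1 UMI. Cluster 17, led by the naive T cell genes Dapl1 and Lef1, had 12.6, 91.3 and 40.9 CPM. Scrublet marked 74.0% of its 227 cells as doublets, and the first value is from 1 UMI in 7 cells.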
